A study of Mus musculus with 4 samples.

Results

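The 46 genes of macroautophagy and mitophagy described here were taken by name from a deposited table of 35275 mouse genes. The rule that picks them uses no measured value, but the set was proposed with earlier results of these data known. They fall into 16 genes of initiation and membrane supply, 12 of conjugation, 14 cargo and mitochondrial receptors with their regulators, and 4 of the lysosome and its control. RNA came from splenic T cells of C57BL/6 mice. The cells had been activated in culture through CD3 and CD28 by antibodies (anti-CD3 and anti-CD28), together with IL-2, and were taken after 3 days. The mice were either wild type or knockouts of ceramide synthase 6 (Cers6, an enzyme that makes ceramides, mainly with a palmitoyl chain), and each genotype was sampled at ages of 2 and 8 months. Each group is represented by 1 library, so no difference between single libraries has a replicate check. The design text speaks of duplicates, and neither it nor the labels state if a library pools several mice. The labels also leave unsaid which exons of Cers6 are deleted and in which tissues.

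Autophagy encloses cytoplasm in a double membrane that is delivered to the lysosome. The ULK1 kinase complex starts the process under the control of mTORC1 and AMPK, the VPS34 lipid kinase complex marks the growing membrane with phosphatidylinositol 3-phosphate, ATG9 and ATG2 bring lipid to it, and WIPI proteins read the mark. A pair of linked conjugation systems then attach LC3 and GABARAP proteins to the membrane, where receptors bring in cargo, including damaged or surplus mitochondria. In activated T cells, autophagy is known to supply metabolites and to remove mitochondria and endoplasmic reticulum.

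In short, the 8-month knockout library held the highest levels of a few genes of membrane growth, led by Wipi1 at 2.71-fold and Gabarapl1 at 2.16-fold the level of the 8-month wild type library. It held the lowest levels of the mitochondrial receptor genes Bnip3 and Bnip3l and of Tfeb, Atg7, Fkbp8 and Pink1. At 8 months 8.89% of members were higher in the knockout by 1.5-fold and 8.89% lower, beside 20.9% and 18.5% of all genes. With both limited to a mean of 20 CPM or more, 7.69% of members and 11.3% of genes were higher. On the lower side those shares were 10.3% and 19.6%. The 8-month knockout library was the highest in 31.1% of members and the lowest in 31.1%, beside 35.2% and 38.4% of all genes. At 2 months no member measured differed by 1.5-fold between the genotypes, beside 4.40% of all genes higher and 6.00% lower. Among genes with a mean of 20 CPM or more those shares were 2.21% and 0.848%. In wild type none differed by 1.5-fold between the ages, beside 7.18% and 6.68%, or 2.03% and 2.63% at that level. No member passed the test that uses all 4 libraries together, so each of these differences is a description of the libraries concerned.

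The promoter windows of 5 genes are printed because the first 4 were the members with the largest excess in the 8-month knockout library and Bnip3 was the member with the largest difference in the other direction between the ages of the knockout. Sequences are from RefSeq on GRCm38.p6, run 5′ to 3′ on the strand of the gene, and hold 250 bases before and 50 bases from the annotated start. Capitals mark CACGTG, the E-box core of the element bound by TFEB and its relatives. The Wipi1 window lies at chr11:109611340-109611639 on the minus strand, at a start 578 bases from that of the deposited gene model. The Gabarapl1 window lies at chr6:129532942-129533241 on the plus strand, the Ulk1 window at chr5:110810032-110810331 on the minus strand, the Atg2a window at chr19:6241418-6241717 on the plus strand and the Bnip3 window at chr7:138909457-138909756 on the minus strand.
Wipi1: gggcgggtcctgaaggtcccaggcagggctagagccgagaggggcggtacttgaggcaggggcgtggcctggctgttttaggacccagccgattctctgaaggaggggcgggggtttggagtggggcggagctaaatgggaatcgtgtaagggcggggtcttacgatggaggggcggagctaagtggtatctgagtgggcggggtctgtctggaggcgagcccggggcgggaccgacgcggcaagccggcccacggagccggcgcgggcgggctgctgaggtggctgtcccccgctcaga
Gabarapl1: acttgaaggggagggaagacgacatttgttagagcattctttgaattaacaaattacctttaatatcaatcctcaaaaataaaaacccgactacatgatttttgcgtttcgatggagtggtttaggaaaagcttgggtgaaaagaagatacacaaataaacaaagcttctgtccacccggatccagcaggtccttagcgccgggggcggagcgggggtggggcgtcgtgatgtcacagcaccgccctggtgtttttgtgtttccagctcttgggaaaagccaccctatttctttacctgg
Ulk1: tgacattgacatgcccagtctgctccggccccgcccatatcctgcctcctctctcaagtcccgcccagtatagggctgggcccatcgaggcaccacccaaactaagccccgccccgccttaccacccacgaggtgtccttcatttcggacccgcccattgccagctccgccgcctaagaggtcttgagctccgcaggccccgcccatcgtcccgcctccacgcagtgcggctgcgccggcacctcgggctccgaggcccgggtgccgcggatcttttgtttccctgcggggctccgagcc
Atg2a: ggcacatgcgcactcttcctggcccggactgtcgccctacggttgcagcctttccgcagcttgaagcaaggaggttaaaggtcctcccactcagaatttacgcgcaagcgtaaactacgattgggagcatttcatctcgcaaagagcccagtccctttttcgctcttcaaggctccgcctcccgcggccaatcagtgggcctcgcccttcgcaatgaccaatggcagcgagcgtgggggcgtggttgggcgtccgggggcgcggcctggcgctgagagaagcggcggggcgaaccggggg
Bnip3: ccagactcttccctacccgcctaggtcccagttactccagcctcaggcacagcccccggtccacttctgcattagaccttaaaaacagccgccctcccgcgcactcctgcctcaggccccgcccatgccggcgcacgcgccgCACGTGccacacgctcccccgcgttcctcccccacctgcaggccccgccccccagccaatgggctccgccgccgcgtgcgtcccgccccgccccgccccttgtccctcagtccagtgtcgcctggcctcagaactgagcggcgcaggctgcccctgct
Of these windows, that of Bnip3 alone held CACGTG, with its first base 108 bases before the start (position -108). The windows of Wipi1, Ulk1, Atg2a and Bnip3 held 69.0%, 68.0%, 63.3% and 71.7% G and C, and that of Gabarapl1 held 46.3%.

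Windows were found for 38 of the 46 genes, 43 windows in all. CACGTG, which reads the same on both strands, was in 7 of these windows (16.3%), and in 7.15% of 32851 windows of all genes. They were the windows of Atg14, Atg3, Atg5, Atg7, Bnip3, Lamp1 and Tbk1, of which Atg7 was past 1.5-fold between the genotypes at 8 months. The Atg7 window lies at an annotated start far from that of the deposited gene model. The longer form TCACGTGA was in the Atg3 window alone (0.974% of all windows). The core ACGTG of the hypoxia response element, searched on both strands and contained in every CACGTG, was in 18 member windows (41.9%) and 19.6% of all windows. GTAAACA, a core bound by FOXO factors, was in no member window and in 3.65% of all, and TGACGTCA, the cyclic AMP response element, was in the Atg5 window and in 1.79% of all. The member windows were richer in G and C, at a median of 60.3% against 52.7%. These matches are a description of the letters in the windows.

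The libraries held 18145555 to 24239344 counts. Levels are given as CPM (counts relative to library size) scaled by TMM, and always in the same order, first the younger and the older wild type library and then the younger and the older knockout library. Cers6 itself was at 13.1, 32.0, 9.17 and 3.38 CPM, so that at 2 months the library labelled knockout held much of the wild type level and at 8 months it was lower by 3.21 on the log2 scale. Summed over 10 T-cell marker genes the level was 2622, 2287, 2624 and 1966 CPM, and no marker of that list was at 0. Over 10 B-cell markers it was 2403, 3455, 2079 and 1384 CPM, again with none at 0. The libraries thus also held RNA of B cells, with 2.50 times as much in the 8-month wild type library as in the 8-month knockout library. Neutrophil markers summed to 1.92, 112, 0.465 and 7.11 CPM, monocyte and macrophage markers to 30.9, 117, 20.7 and 35.4, dendritic cell markers to 21.9, 19.8, 16.2 and 26.4, NK cell markers to 51.8, 5.76, 35.7 and 32.7, and erythroid markers to 17.1, 40.0, 23.5 and 59.3. Of these lists, the erythroid marker Slc4a1 was at 0 in every library, and 2 and 5 of 10 neutrophil markers were at 0 in the 2-month wild type and knockout libraries. Klrc1 and Eomes made up most of the NK sum, at 0.425 and 4.77 CPM in the 8-month wild type library and 16.5 and 12.7 in the 8-month knockout. The 5 NK markers that reached 2 CPM were all higher in that knockout library. Ncr1, under 2 CPM, was lower there (0.378 in wild type and 0.171 in the knockout). Every comparison below therefore sets side by side libraries that differ in cell type markers. The part of cell makeup in the differences was not tested, and fewer cells of a type cannot be told apart from less RNA per cell. Xist was at 441 CPM in the 2-month wild type library and at no more than 0.171 in the others. Any difference in sex that goes with this cannot be told apart from genotype at 2 months or from age in wild type. That holds for all members, the X-linked Fundc1, Lamp2 and Tfe3 included. It also enters the test that uses all libraries together, and its part was not tested.

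Levels between genes were compared per length, as the deposited FPKM. The receptor gene Bnip3 had the highest mean of the members, at 180.6 FPKM over the 4 libraries, followed by Gabarap at 160.4, Bnip3l at 123.7, Fkbp8 at 121.4, the cargo receptor gene Sqstm1 at 91.6 and the lysosomal membrane gene Lamp1 at 71.0. Bnip3 was above Gabarap in both 2-month libraries (208 against 167.4 and 229 against 139.8 FPKM) and below it in both 8-month libraries (155.5 against 177.2 and 129.9 against 157.2). At the other end stood Atg10 at 3.44, Wipi1 at 2.31 and Park2, the gene of parkin, at 0.0617 FPKM. Park2 had 0, 21, 3 and 1 counts and was the one member that did not reach 2 CPM in any library, so 45 members were measured.

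Within the ULK1 complex, Ulk1, the kinase itself, was at 44.2, 44.5, 44.2 and 67.2 CPM. The other libraries lay within a few percent of each other, and the 8-month knockout library stood above them, by 0.59 on the log2 scale over wild type of that age (95% counting interval 0.48 to 0.71). Rb1cc1, which encodes the scaffold FIP200, was at 50.8, 49.5, 64.2 and 73.1 CPM. It was higher in the knockout at both ages, by log2 differences of 0.34 (0.22 to 0.46) in the younger and 0.56 (0.45 to 0.67) in the older mice. Atg13, the adaptor subunit, was at 50.8, 51.3, 60.4 and 60.4 CPM, again higher in both knockout libraries and level between the ages. Ulk2, the paralogous kinase, ran from 31.9 to 37.6 CPM, and Atg101, which stabilises ATG13, from 21.4 to 27.3 CPM with both knockout libraries below both wild type libraries, though at 8 months the log2 difference of Atg101 turned from -0.23 to 0.02 with library size alone and 0.05 after the length trend.

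Genes of the VPS34 complex were within 1.5-fold in every comparison with TMM scaling. Between the genotypes at 8 months, Pik3r4 was past it at -0.60 after the length trend described below, and Ambra1 at 0.69 with library size alone. Pik3c3, the catalytic subunit, was at 62.6, 57.7, 63.5 and 43.1 CPM, and Pik3r4, its regulatory subunit, at 57.2, 57.2, 55.6 and 44.1. For both, the 8-month knockout library was the lowest, at log2 differences of -0.42 and -0.37 from wild type of that age. Ambra1, an activator of the complex, was at 58.0, 55.8, 61.4 and 76.1 CPM and so was highest in that library. Becn1, the beclin subunit, ran from 51.4 to 60.2 CPM, Uvrag, which directs the complex to endosomes, from 79.1 to 84.7, and Atg14, which directs it to the forming autophagosome, from 15.2 to 20.4.

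Lipid supply and WIPI genes included the largest fold among the 45 members that reached 2 CPM. Wipi1, which binds phosphatidylinositol 3-phosphate, had 128, 105, 93 and 317 counts, or 5.57, 4.96, 5.4 and 13.6 CPM. The first 3 libraries overlapped in their counting intervals and the 8-month knockout library was 2.43 times the highest of them. Its log2 difference from wild type was -0.04 (-0.45 to 0.35) in the younger mice and 1.44 (1.13 to 1.79) in the older. Wipi2, the paralogue that recruits ATG16L1, was more abundant and less different, at 84.2, 73.2, 78.5 and 98.5 CPM. By FPKM, Wipi2 exceeded Wipi1 9.75-, 9.53- and 9.39-fold in the first 3 libraries and 4.69-fold in the 8-month knockout library. Atg2a, a lipid transfer protein gene, was at 60.8, 58.9, 65.8 and 97.5 CPM, with the 8-month knockout library above the others and a log2 difference of 0.73 (0.63 to 0.83) from wild type of that age. Its paralogue Atg2b, the longest transcript of the set, ran from 74.9 to 97.8 CPM with both knockout libraries above both wild type libraries. That direction turned once the length trend was taken out, to -0.02 at 2 months and -0.28 at 8 months on the log2 scale. Atg9a, the lipid scramblase gene, lay between 17.2 and 21.02 CPM. The count of Atg9a can hold reads of Ankzf1, which overlaps it on the opposite strand, since the sources used here do not say whether counting used strand.

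**Figure D1:**
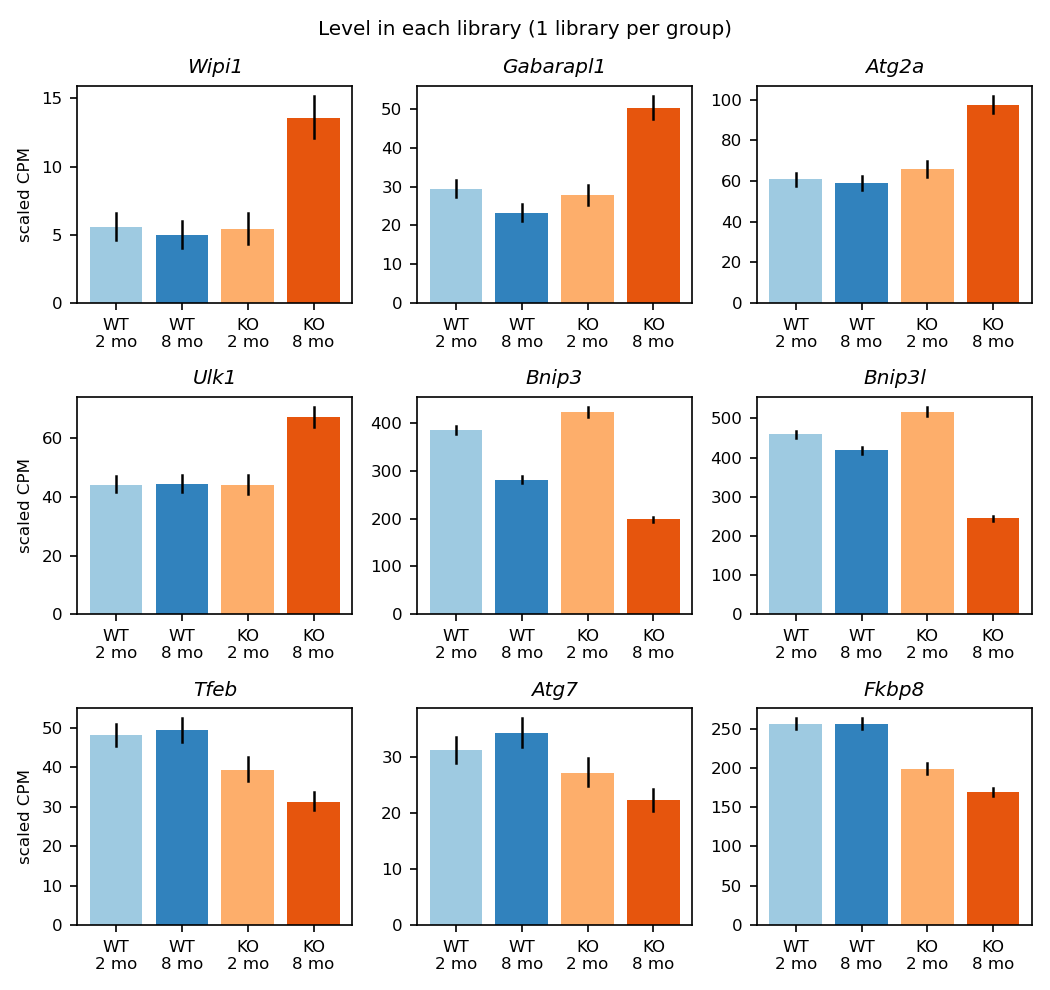
Scaled CPM of 9 members in each of the 4 libraries, with bars from 0 and lines for the exact 95% counting interval. Wipi1, Gabarapl1, Atg2a and Ulk1 are highest and Bnip3, Bnip3l, Tfeb, Atg7 and Fkbp8 lowest in the 8-month knockout library.

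In the conjugation group, the ubiquitin-like conjugation genes differed little and not in one direction. Atg7, the activating enzyme of both systems, was at 31.2, 34.3, 27.1 and 22.2 CPM, lower in both knockout libraries and lowest at 8 months, where the log2 difference was -0.62 (-0.79 to -0.46). Atg5, which is joined to ATG12, was at 32.6, 35.8, 32.5 and 26.3 CPM and so was also lowest in the 8-month knockout library. Atg12 was at 54.5, 44.5, 61.7 and 57.2 CPM, higher in the knockout at each age. Atg16l1, which places the conjugate on the membrane, was at 50.1, 43.5, 41.3 and 53.1 CPM, lower in the knockout at 2 months and higher at 8 months. Atg3, the conjugating enzyme for LC3, ran from 37.6 to 46.9 CPM, the protease gene Atg4b from 53.1 to 57.9 and Atg10, the conjugating enzyme for ATG12, from 5.18 to 6.09.

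Among the LC3 and GABARAP genes, Gabarapl1 stood apart. It had 677, 493, 479 and 1176 counts, or 29.5, 23.3, 27.8 and 50.3 CPM, with the 8-month knockout library 1.71 times the highest of the others. The log2 difference from wild type was -0.08 (-0.26 to 0.09) in the younger mice and 1.11 (0.96 to 1.27) in the older. Gabarap, the most abundant of the family, was at 238.7, 247.2, 198.9 and 184.9 CPM and so was lower in the knockout at both ages, by -0.26 and -0.42 on the log2 scale. After the length trend described below these differences shrank to -0.12 and -0.16. With library size alone the one at 8 months was -0.17. Map1lc3b, the gene of the widely used autophagosome marker LC3B, was nearly level at 119.1, 122, 127.2 and 125.9 CPM. Gabarapl2 ran from 55.2 to 64.4 CPM and Map1lc3a from 5.17 to 6.34. As a share of the summed FPKM of the 5 genes, Gabarapl1 made up 6.29%, 5%, 6.69% and 12%, and Gabarap 66.6%, 69.4%, 62.5% and 57.4%. The share is free of the scaling between libraries, though not of the length trend. The 8-month knockout library had the highest share of Gabarapl1 and the lowest of Gabarap.

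**Figure D2:**
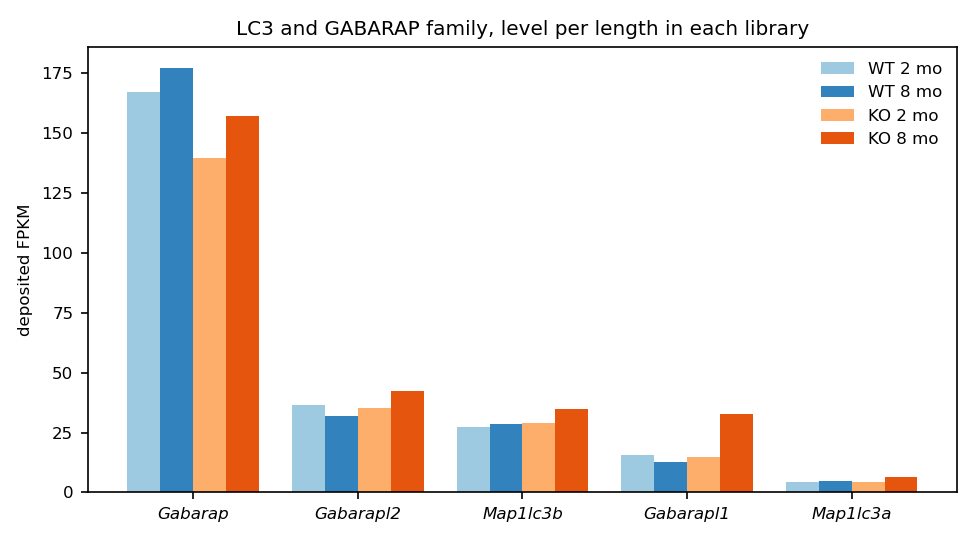
Deposited FPKM of the 5 LC3 and GABARAP genes in each library, 1 bar per library. Gabarap is the tallest in every library (139.8 to 177.2 FPKM), and Gabarapl1 is at 12.8 to 15.8 FPKM in 3 libraries and at 32.8 in the 8-month knockout library, where FPKM of this library run higher because they are not scaled by TMM.

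Soluble cargo receptors were steady. Sqstm1, the gene of p62, was at 232.9, 257.6, 239.2 and 245.6 CPM, and its log2 difference between the genotypes was 0.04 at 2 months and -0.07 at 8 months. Tax1bp1 ran from 187.8 to 211.6 CPM, Nbr1 from 83.0 to 97.8, and Tbk1, the kinase that activates these receptors, from 62.9 to 78.7. Optn, the gene of optineurin, was the exception by age, at 10.9, 15.8, 8.54 and 13.0 CPM. Both 8-month libraries lay above both 2-month libraries, with log2 differences between the ages of 0.53 (0.30 to 0.78) in wild type and 0.60 (0.32 to 0.90) in the knockout.

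Of the 6 receptor genes on mitochondria, Bnip3, Bnip3l and Fkbp8 were among the 4 most abundant members by mean FPKM, and Bcl2l13 was among the less abundant. Bnip3, a receptor gene known to be induced by hypoxia, was at 385.5, 282.1, 423.7 and 198.6 CPM. Both 8-month libraries were below both 2-month libraries, with log2 differences between the ages of -0.45 (-0.50 to -0.40) in wild type and -1.09 (-1.15 to -1.04) in the knockout. Bnip3l, the gene of the receptor NIX that clears mitochondria from maturing red cells, was at 459.1, 418.9, 517.6 and 244.5 CPM. Here 3 libraries lay between 418.9 and 517.6 and the 8-month knockout library lay below them, with a log2 difference of -0.78 (-0.83 to -0.73) from wild type of that age and of -1.08 (-1.13 to -1.03) from the 2-month knockout. The summed erythroid markers were highest in the library in which Bnip3l was lowest, although Alas2 and Klf1 of that list were not, and their part was not tested.

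Fkbp8, a receptor on the outer mitochondrial membrane, was at 256.3, 255.9, 198.9 and 168.9 CPM, lower in both knockout libraries, by -0.37 at 2 months and -0.60 (-0.66 to -0.54) at 8 months on the log2 scale. Its gene overlaps Kxd1 on the opposite strand, whose reads cannot be told apart from it where counting ignores strand. Fundc1, a receptor that responds to hypoxia, was at 31.4, 33.8, 38.6 and 26.3 CPM, and Phb2, a receptor of the inner membrane, at 166, 150.2, 147.4 and 113.6. Both were lowest in the 8-month knockout library. Bcl2l13, a receptor related to the BCL2 family, was at 47.2, 47.0, 62.9 and 53.5 CPM, higher in the knockout at each age, but lower at 8 months after the length trend (log2 difference -0.19, from 0.18). It shares a stretch with Bid on the opposite strand. Over the 6 mitochondrial receptor genes, 4 were higher in the knockout at 2 months (median log2 difference 0.15) and 5 were lower at 8 months (median -0.45). Of 12133 genes measured, 5934 were higher at 2 months and 6107 lower at 8 months. Among genes with a mean of 20 CPM or more, 2.21% were higher and 0.848% lower by 1.5-fold at 2 months. At 8 months these were 11.3% and 19.6%. The split about 0 was not taken at that level.

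Pink1, the kinase that marks damaged mitochondria, was at 82.2, 82.4, 96.2 and 58.4 CPM. The 8-month knockout library was the lowest, by -0.72 (-0.82 to -0.62) on the log2 scale against the 2-month knockout. Usp30, a deubiquitinase that opposes parkin, was at 23.5, 30.6, 20.8 and 27.2 CPM, higher at 8 months in each genotype. Of Park2, the ubiquitin ligase that PINK1 recruits, the 8-month wild type library had 21 counts (0.991 CPM) and the 2-month wild type library 0. The former was 7.59-fold higher when the latter is set at a floor of 3 counts. The 95% counting interval of their log2 ratio began at 2.50. The 8-month knockout library had 1 count, and the 95% counting interval of its log2 ratio to wild type of that age ran from -9.90 to -1.90. In the authors' deposited table, Park2 between the ages of the wild type had the lowest adjusted p of any member (log2 fold 7.46, adjusted p = 0.00223). The authors' deposited table also gave adjusted p-values under 0.05 for Park2 and for Wipi1 between the genotypes at 8 months (0.00615 and 0.0345). Those p-values compare single libraries.

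On the lysosomal side, Tfeb, the transcription factor known to switch on lysosomal and autophagy genes, was at 48.1, 49.3, 39.4 and 31.2 CPM. Both knockout libraries were below both wild type libraries, with log2 differences of -0.29 (-0.43 to -0.15) for the younger pair and -0.66 (-0.80 to -0.52) for the older. Tfe3, its relative, was at 32.1, 41.0, 36.4 and 41.4 CPM, and by FPKM Tfeb exceeded it 4.05-, 3.25-, 2.93- and 2.04-fold. Lamp1, a major protein of the lysosomal membrane, was at 159, 192.8, 145.2 and 144.3 CPM, lower in the knockout by -0.13 and -0.42 on the log2 scale, and Lamp2, needed for fusion with the autophagosome, was at 65.9, 70.7, 83.5 and 90.7 CPM, higher by 0.34 and 0.36.

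The comparison of the knockout with wild type at 2 months sets side by side libraries that held RNA of both T cells and B cells. They also differed in Xist, and Cers6 was at 9.17 CPM in the knockout and 13.1 in wild type. The part of these in the differences was not tested. Of the 45 members measured, 0 were higher and 0 lower by 1.5-fold or more, where 4.40% of 12133 genes measured were higher and 6.00% lower. The extremes were Bcl2l13 at 0.41 and Fkbp8 at -0.37 on the log2 scale, and the members' median was 0.04 beside -0.01 over all genes. Members were mostly well expressed, and among genes with a mean of 20 CPM or more the shares past 1.5-fold were 2.21% and 0.848%. The median size of the log2 difference was 0.17 among the 39 members of that level and 0.17 among all 7194 such genes. At 2-fold or more, 0 members were higher or lower, beside 0.923% and 2.08% of all genes.

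At 8 months, the same comparison gave 4 members higher by 1.5-fold or more, namely Wipi1, Gabarapl1, Atg2a and Ulk1, and 4 lower, namely Bnip3l, Tfeb, Atg7 and Fkbp8. Each count is 8.89% of the 45 members, beside 20.9% of all genes higher and 18.5% lower, so the set held smaller shares past this fold than the table as a whole. Among genes with a mean of 20 CPM or more, 7.69% of the members and 11.3% of the genes were higher, and 10.3% of the members and 19.6% of the genes were lower. The median size of the log2 difference was 0.29 for the members and 0.46 for all genes, and it was 0.36 and 0.38 when both were limited to a mean of 20 CPM or more. At 2-fold or more, 2 members were higher (10.4% of all genes) and 0 lower (6.47%). The members' median was 0.05 beside 0.00 for all genes. By group, 12 of 16 initiation genes lay above 0 (median 0.23, and 0.05 after the length trend) and 7 of 12 conjugation genes (median 0.08). So did 4 of 13 receptor genes (median -0.28) and 2 of 4 lysosomal genes (median -0.20, and 0.05 with library size alone). Over all genes measured, 6026 of 12133 lay above 0, a split that was not taken among genes with a mean of 20 CPM or more.

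**Figure D3:**
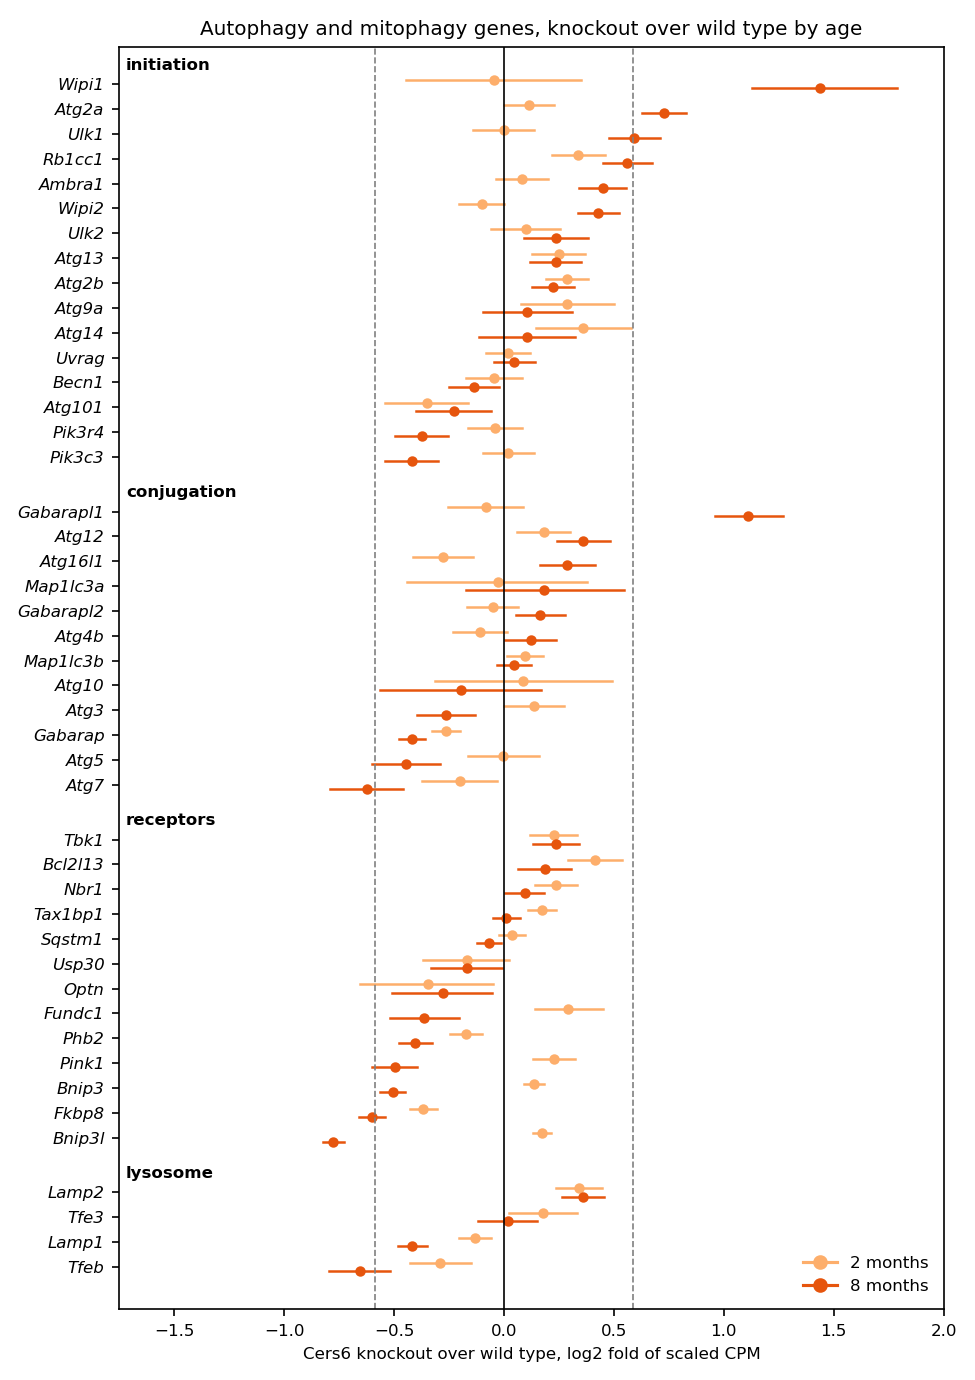
Log2 difference of scaled CPM, knockout over wild type, for the 45 members measured, with points in pale (2 months) and dark orange (8 months), arranged by group, with dashed lines at 1.5-fold and lines for the 95% counting interval. No member passes the dashed lines at 2 months, and 4 pass on each side at 8 months.

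**Figure D4:**
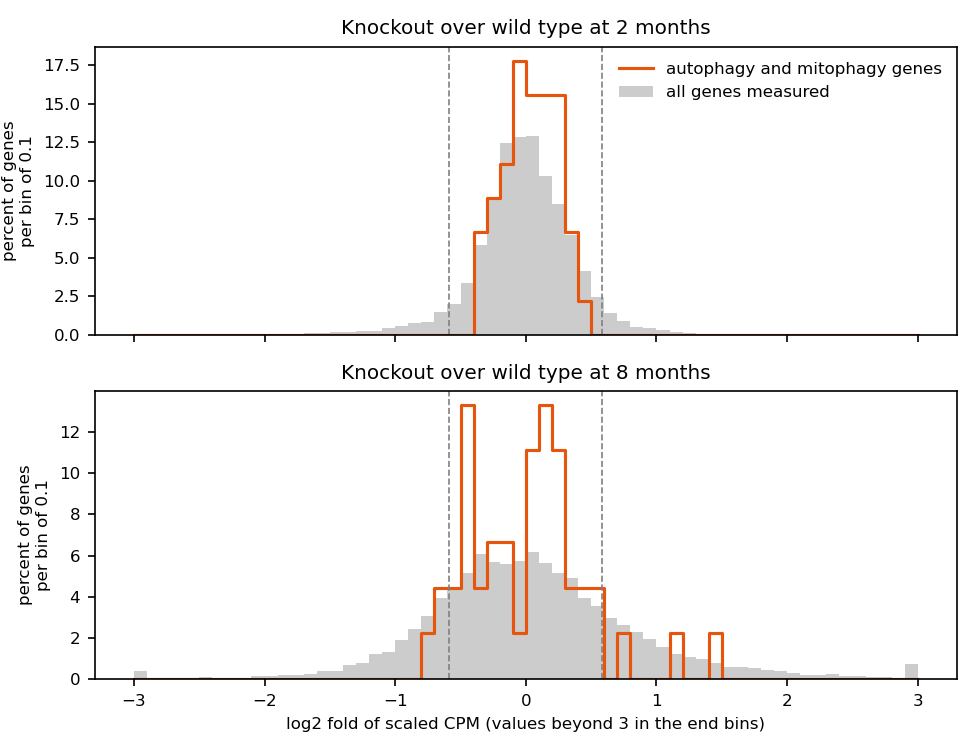
Percent of genes per bin of log2 difference, knockout over wild type, for the members (line) and for all 12133 genes measured (grey), at 2 months (top) and 8 months (bottom). The spread of all genes is wider at 8 months, and the members stay between -0.78 and 1.44.

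Which genes count as past 1.5-fold at 8 months depended on scaling and on gene length. Longer genes lay higher in the knockout over the whole table (Spearman's rho 0.37 at 2 months and 0.30 at 8 months across 12133 genes, which are not independent). After a trend on gene length was taken out, Wipi1 stood at 1.40 and Gabarapl1 at 1.30 on the log2 scale, whereas Atg2a stood at 0.39 and Ulk1 at 0.34, under 1.5-fold. Rb1cc1, one of the longest transcripts of the set, went from 0.56 to 0.15. On the lower side, Bnip3l and Atg7 stayed past 1.5-fold at -0.80 and -0.73, Tfeb at -0.55 and Fkbp8 at -0.42 did not, and Pik3r4 passed it at -0.60. With a trend on GC share taken out as well, Tfeb was past 1.5-fold again at -0.67 and Pik3r4 was not. With median-of-ratios factors Ulk1 was just under 1.5-fold at 0.57. Scaling by library size alone moved the median of all genes to 0.24, and with it the 4 lower genes came to between -0.53 and -0.35.

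With TMM scaling, the direction between the genotypes was the same at both ages in 17 members that were higher and 12 that were lower, while 8 were lower at 2 months and higher at 8 months and 8 the reverse. The same counts were not taken over all genes. Between the ages the genotype difference moved most for Wipi1 (by 1.48 on the log2 scale) and Gabarapl1 (1.19) on the higher side and for Bnip3l (-0.95) and Pink1 (-0.72) on the lower. With 1 library per group, the difference of differences has no test.

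The comparison of ages within wild type sets side by side libraries that also differed in Xist and in neutrophil, macrophage and NK cell markers, as given above, and the part of these in the differences was not tested. Here 0 of 45 members were higher and 0 lower by 1.5-fold or more at 8 months, beside 7.18% and 6.68% of all genes. None was past 2-fold either, beside 3.29% and 2.77%. Among genes with a mean of 20 CPM or more the shares past 1.5-fold were 2.03% and 2.63%. The members' median size of log2 difference was 0.10, beside 0.18 for all genes and 0.13 for genes with a mean of 20 CPM or more, and the range ran from Bnip3 at -0.45 to Optn at 0.53. All 4 lysosomal members lay above 0 (median 0.19), beside 5712 of 12133 genes measured. The counting intervals of Tfeb (-0.09 to 0.16) and Lamp2 (-0.004 to 0.20) took in 0. Lamp2 and Tfe3 are X-linked.

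Age within the knockout gave 4 members higher, namely Wipi1 at 1.31 (0.99 to 1.68), Gabarapl1 at 0.85 (0.70 to 1.01), Ulk1 at 0.60 and Optn at 0.60 on the log2 scale, and 3 lower, namely Bnip3, Bnip3l and Pink1. These are 8.89% and 6.67% of the members, beside 19.3% and 15.4% of all genes. Among the 39 members with a mean of 20 CPM or more, 5.13% were higher and 7.69% lower, beside 6.94% and 17.9% of the genes of that level. At 2-fold or more, 1 member was higher (10.3% of all genes) and 2 were lower (4.71%). Atg2a was just short of 1.5-fold at 0.57. All 6 mitochondrial receptor genes lay below 0 (median -0.46), beside 6386 of 12133 genes measured. Genes with a mean of 20 CPM or more were past 1.5-fold more often on the lower side (17.9% against 6.94%). The split about 0 was not taken at that level. With scaling by library size alone, however, Bcl2l13 and Fkbp8 lay above 0 at 0.04 each. Both comparisons that show Wipi1, Gabarapl1 and Bnip3l past 1.5-fold use the 8-month knockout library, so they are not independent of each other. That library was the highest of the 4 in 14 members (31.1%) and the lowest in 14, and over all genes in 35.2% and 38.4%.

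**Figure D5:**
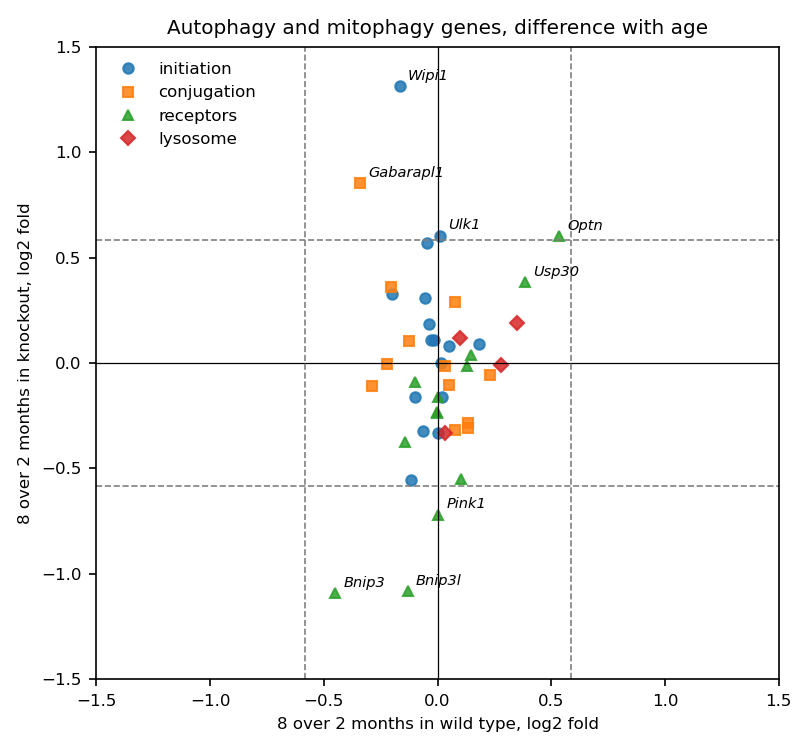
Log2 difference of scaled CPM, 8 over 2 months, in wild type (horizontal axis) and in the knockout (vertical axis), with 1 point per member measured, its shape and colour giving the group, and dashed lines at 1.5-fold. Wild type values lie between -0.45 and 0.53, and knockout values between -1.09 and 1.31.

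A test over all 4 libraries took genotype and age as additive terms, so that the ages stand in for replicates of a genotype and the reverse. By edgeR's quasi-likelihood test with Benjamini-Hochberg adjustment over 13906 genes, 0 of 45 members were called for genotype, where 0.0288% of all genes were, and 0 had an unadjusted p under 0.05. DESeq2 and limma-voom also called 0. The lowest adjusted p was that of Rb1cc1 (log2 effect 0.46, SE 0.24, adjusted p = 0.629 by edgeR), which was higher in the knockout at both ages. Tfeb followed at -0.47 (SE 0.25, adjusted p = 0.638 by edgeR), lower in the knockout at both ages. Gabarapl1 (0.52, SE 0.30) and Wipi1 (0.72, SE 0.47) did not pass either, and at 2 months their genotype differences lay near 0. The Rb1cc1 effect was -0.02 once trends on length and on GC share were both taken into account.

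For age, edgeR called 0 of 45 members, where 0.230% of all genes were called. Bnip3 was the 1 member with an unadjusted p under 0.05 for age. Its log2 effect was -0.76 (SE 0.31, adjusted p = 0.511 by edgeR). Bnip3l stood at -0.59 (SE 0.33, adjusted p = 0.719 by edgeR). DESeq2 and limma-voom called 0 for age. The edgeR fit without the 8-month wild type library held no term for genotype. Its log2 effects were -1.01 for Bnip3, -0.98 for Bnip3l and -0.59 for Pink1. Those of Wipi1, Gabarapl1, Atg2a and Ulk1 were 1.32, 0.83, 0.64 and 0.62. That fit sets the 8-month knockout library alone against both 2-month libraries, so age cannot be told apart from genotype or from that library.

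Genes around the core machinery were taken from 4 further lists. Up to 3 genes of each list are named, those with the largest mean difference between the genotypes over both ages. That rule favours genes with the same direction at both ages, so a shared direction among the named genes is partly a result of the choice. Values after the length trend are not given for these genes. The lists were not matched for level either. Among genes with a mean of 20 CPM or more, 11.3% were higher and 19.6% lower by 1.5-fold in the knockout at 8 months. Of 24 measured genes of mTORC1 and AMPK signalling, which restrain and start autophagy, 3 were higher and 3 lower by 1.5-fold in the knockout at 8 months (median 0.08), beside 20.9% and 18.5% of all genes. Fnip1, a folliculin partner in nutrient sensing, was at 32.9, 30.0, 51.2 and 59.7 CPM, higher in the knockout at both ages. Rragd, a RAG GTPase, was at 4.88, 4.96, 7.14 and 9.16 CPM, in the same order of genotypes, and Akt1s1, an inhibitory subunit of mTORC1, was at 36.2, 41.1, 29.1 and 22.1. Prkab2 had the largest excess of this list in the knockout at 8 months. It was lower in the knockout at 2 months, and the rule did not pick it.

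Of 21 further genes of autophagosome formation and fusion, 3 were higher and 1 lower at 8 months (median 0.07), beside the same 20.9% and 18.5%. Tecpr1, a tether between autophagosome and lysosome, was at 177.5, 146.5, 172.9 and 288.7 CPM and so was highest in the 8-month knockout library. Vamp8, a SNARE of that fusion, was at 67.3, 68.7, 52.7 and 30.5 CPM, lower in the knockout at both ages. Epg5, another tether, was at 26.9, 27.5, 36.7 and 38.2 CPM, higher in both knockout libraries. Stx17 had the largest excess of this list in the knockout at 8 months. It was lower in the knockout at 2 months and was not picked either.

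Of 29 genes of lysosomal hydrolases, membrane proteins and the proton pump, 2 were higher and 7 lower at 8 months (median -0.22), beside the 20.9% and 18.5% of all genes. Among genes with a mean of 20 CPM or more those shares were 11.3% and 19.6%. Cd63, a lysosomal membrane tetraspanin also abundant in myeloid cells, was at 7.23, 27.4, 3.13 and 11.3 CPM. It rose with age by edgeR's test (adjusted p = 0.0265), was higher at 8 months in each genotype, and was the one gene of the 4 lists that was called for either effect. With library size alone, without either 2-month library, or in the model without genotype, edgeR called 0 genes higher with age over the whole table, so this call was lost there. The neutrophil and macrophage markers given above were also higher at 8 months in each genotype, and their part was not tested. Npc1, the cholesterol exporter of the lysosome, was at 46.9, 34.0, 64.3 and 77.6 CPM, and the hydrolase gene Gusb at 45.1, 49.7, 36.9 and 25.9. Both kept 1 direction between the genotypes at both ages, which the rule for naming genes favours, Npc1 higher and Gusb lower in the knockout.

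Of 14 further mitophagy genes measured, 0 were higher and 2 lower at 8 months (median -0.06), again beside 20.9% and 18.5%. Phb, the partner of PHB2, was at 81.6, 84.0, 74.3 and 37.4 CPM, and Vcp, the ATPase that extracts ubiquitinated proteins from mitochondria, at 318.6, 348.8, 316.0 and 207.4. Both were lowest in the 8-month knockout library. Usp8, a deubiquitinase that acts on parkin, was at 84.7, 81.7, 105.3 and 119.5 CPM, higher in both knockout libraries.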

How the data were processed

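RNA was sequenced in 4 libraries, 1 per group, grouped by the genotype and age in their labels. Tools named in the submitters' processing notes are STAR and CASAVA, with no version, and the builds named are mm10 and GRCm38. Not given in the sources used here are the counter, its strand setting, the annotation and the authors' test. Per the file headers, the deposited table holds raw counts per gene, FPKM, and the authors' log2 fold changes and adjusted p-values for 4 contrasts of libraries. The deposited FPKM equal counts divided by gene length and library total, within 1e-6, and were used to compare levels between genes.

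Members and lists were chosen with earlier results of these data known. Named were the members at 1.5-fold or more in a knockout contrast and those that define their groups, and of each further list up to 3 genes with the largest mean knockout difference. CPM were scaled by TMM (edgeR 4.0.16, R 4.3.3), with factors of 0.947, 0.968, 0.949 and 1.15. Single-library contrasts are log2 ratios of scaled CPM (prior count 2). They cover 12133 genes that reached 2 CPM in any library, with exact 95% intervals (scipy 1.17.1) that cover counting error only. Tests were edgeR quasi-likelihood fits of age and genotype on 13906 genes past filterByExpr, with 1 residual degree of freedom and a biological variation (BCV) of 0.267, so that a genotype effect that differs between ages counts as spread. Alternatives were other scalings, prior counts, filters, folds and tools (DESeq2 1.42.0, limma 3.58.1), each library left out, and trends on gene length. Fits with 1 library left out held no term for the other factor. Trends on length with GC share, and the level-matched shares of genes with a mean of 20 CPM or more, were added after seeing the data. Symbols not found in the table (Rubcn, and the markers Adgre1 and Ahsp) were left out, and the coordinates are those of GRCm38.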

Additional observations from a re-analysis of the deposited data

How the results depend on the processing

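No paired analysis was possible because each group has 1 library and the labels give no replicate numbers. In the knockout over wild type at 8 months, 4 members were higher by 1.5-fold, against 9 with library size alone (Rb1cc1, Ambra1, Wipi2, Lamp2 and Atg12 in addition), 2 after a trend on gene length, 2 after trends on length and GC share, and 2 at 2-fold. The 4 lower became 3 after the trend on length, 0 with library size alone and 0 at 2-fold. At 8 over 2 months in the knockout, the 4 higher became 2 with median-of-ratios factors, 8 with library size alone and 1 at 2-fold. Without a filter on low counts, Park2 gave 1 member higher both in the knockout at 2 months and with age in wild type, in place of 0.

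Library size alone turned the lysosomal median of the 8-month genotype comparison from -0.20 to 0.0456 and the receptor median of age in the knockout from -0.23 to 0.0419, and moved the median over members of the difference between ages from -0.09 to 0.15. That scaling shifts the median of all genes to 0.24 and 0.23 in the 2 comparisons that use the 8-month knockout library. After length trends, the initiation median at 8 months went from 0.23 to 0.05.

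Members called for age were between 0 and 7 with 1 library left out, with 7 without the 8-month wild type library (lowest adjusted p = 3.58e-05 by edgeR), and members called for genotype stayed at 0 in every fit. The genotype effect of Rb1cc1 turned from 0.46 to -0.0202 with offsets for length and GC share (adjusted p = 0.991 by edgeR); the cause was not tested. Over the table, edgeR called 1 gene higher and 3 lower for genotype, against 76 and 59 without a filter and 0 and 0 with library size alone, and 27 higher and 5 lower for age, against 106 and 93 and 0 and 0. Counting error limits Wipi1, Atg10, Map1lc3a and Park2 most.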
